A study of Mus musculus with 56 samples.

Results

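The 37 genes of the mouse mitochondrial chromosome were followed through ribosome pulldowns from the barrel cortex, the whisker area of the somatosensory cortex. They were taken as every gene whose symbol begins with mt-, and they comprise 2 ribosomal RNAs (rRNAs), 13 messenger RNAs (mRNAs) and 22 transfer RNAs (tRNAs) among the 55386 genes listed in at least 1 of 3 count tables. All 37 were listed in the tables of the astrocyte and knockout lines and 35 in that of the heterozygous line, where mt-Tw and mt-Tg have no row. In translating ribosome affinity purification (TRAP), a chosen cell type carries an EGFP-tagged L10a protein of the cytosolic large ribosomal subunit, and RNA held by GFP-antibody beads (bound) was sequenced beside the RNA that stayed in the lysate (unbound). The astrocyte line carried Aldh1l1::eGFPL10a, driven by the Aldh1l1 promoter, and received no tamoxifen. Both microglial lines carried an Eef1a1LSL.eGFPL10a/+ allele that tamoxifen-activated Cre opens in cells expressing Cx3cr1, the fractalkine receptor gene, and pups were fed 50 µg of tamoxifen daily from postnatal day 1 to 3. The heterozygous line was Cx3cr1CreErt2/+(Litt), and in the knockout line, Cx3cr1CreErt2/CreErt2(Litt), both copies of Cx3cr1 carry the CreErt2 insertion. All mice had the whiskers of the right side cauterised on postnatal day 4 and were sampled 24 h later, on day 5. Deprived and control therefore both name tissue of lesioned animals, and no unlesioned animal serves as a control. They stand for 2 sides, except that some heterozygous mice have both pieces in the same group, as given below. Each of the 12 groups held 5 libraries in the astrocyte and knockout lines and 4 in the heterozygous line, 56 in all, from both sexes.

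Mitochondrial DNA is a small circular genome transcribed from both strands as long precursors, and tRNAs lie between most of its rRNAs and mRNAs, so that excision of the tRNAs releases the other transcripts. Its mRNAs encode core subunits of respiratory complexes I, III and IV and of ATP synthase, and they are read by mitochondrial ribosomes inside the organelle, which contain the mitochondrial rRNAs and have no L10a. Tagged cytosolic ribosomes thus do not translate them. The lysate was cleared of nuclei and, after detergent, spun a second time to give a post-mitochondrial supernatant, per the labels' protocols.

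Several mitochondrial mRNAs have near-identical nuclear copies, which bear on how reads can be assigned. On GRCm38, 7 annotated copies lie on the minus strand of chromosome 1 within chr1:24611535-24616197, in the order of the mitochondrial genes. The first bases of mt-Co2 (cytochrome c oxidase subunit II) and of its copy Gm28661 are printed with the first codon in capitals, those of mt-Nd3 (a complex I subunit) and Gm28438 with the differing base in capitals, and a stretch of mt-Nd2 (a complex I subunit) and Gm13339 with differing bases in capitals. They are shown because the first pair cannot be told apart by sequence and the last can.
mt-Co2: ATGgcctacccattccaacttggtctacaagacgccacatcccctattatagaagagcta
Gm28661: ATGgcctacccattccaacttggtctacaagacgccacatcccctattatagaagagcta
mt-Nd3: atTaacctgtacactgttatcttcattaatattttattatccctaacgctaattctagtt
Gm28438: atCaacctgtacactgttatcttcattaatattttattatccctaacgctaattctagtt
mt-Nd2: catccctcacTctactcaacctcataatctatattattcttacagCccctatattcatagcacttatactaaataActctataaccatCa
Gm13339: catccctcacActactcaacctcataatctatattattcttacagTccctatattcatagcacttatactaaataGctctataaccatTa

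These stretches lie at chrM:7013-7072 (plus), chr1:24615506-24615565 (minus), chrM:9459-9518 (plus), chr1:24613060-24613119 (minus), chrM:4506-4595 (plus) and chr2:22590380-22590469 (minus). Gm28661 matches mt-Co2 over all of its 681 bases, and Gm10925, Gm28437, Gm10222 and Gm28439 match mt-Atp6, mt-Co3, mt-Nd4l and the first 876 bases of mt-Nd4 with 0 differences. Gm28438 differs from mt-Nd3 by 1 base (T3C, counted from the start of the gene) over 345 bases. Gm29216 covers 492 bases of mt-Co1 with 6 differences, and Gm13339, on chromosome 2, covers 510 bases of mt-Nd2 with 17, of which 4 fall in the 90 bases shown. Of all 100-base stretches, 99.5% of those in mt-Co2 and in mt-Atp6, 60.8% of those in mt-Nd4, 30.8% of those in mt-Co1 and 3.20% of those in mt-Nd2 also occur in an annotated nuclear transcript. None did for mt-Rnr1, mt-Rnr2, mt-Nd1, mt-Nd5, mt-Nd6, mt-Cytb or mt-Atp8. Gene models are those of GENCODE vM21.

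Some members also share bases with each other. The end of mt-Atp8 overlaps the start of mt-Atp6 by 43 bases, in capitals here (chrM:7907-7969, plus strand), mt-Nd4l overlaps mt-Nd4 by 7 bases, and mt-Nd5 overlaps the opposite-strand mt-Nd6 by 14. The tRNAs shown beside it carry the tRNA results: mt-Tp (proline, chrM:15356-15422, minus strand), the tRNA with the highest counts, mt-Tc (cysteine, chrM:5192-5257, minus strand), measured in all lines, and mt-Td (aspartate, chrM:6942-7011, plus strand), with the largest difference between fractions in the astrocyte line.
mt-Atp8: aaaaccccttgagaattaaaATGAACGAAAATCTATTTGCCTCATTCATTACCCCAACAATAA
mt-Tp: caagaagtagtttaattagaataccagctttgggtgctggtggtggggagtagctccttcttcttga
mt-Tc: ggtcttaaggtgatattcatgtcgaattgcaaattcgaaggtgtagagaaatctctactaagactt
mt-Td: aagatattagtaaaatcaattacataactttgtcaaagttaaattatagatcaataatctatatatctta

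mt-Nd6 and 8 tRNAs lie on the minus strand. The strand setting of the counting is not given in the sources used here, so reads from a gene and from RNA of the opposite strand cannot be told apart.

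Libraries held 10081228 to 28584281 counts in the astrocyte line, 32772396 to 50712376 in the heterozygous line and 34622580 to 56689296 in the knockout line. Cx3cr1 itself stood at 6.52 to 12.4 CPM (counts scaled to a common library size) in heterozygous bound RNA and 0.336 to 1.25 CPM in knockout bound RNA. All 10 astrocyte markers rose in bound over unbound RNA of the astrocyte line, among them Aldh1l1 by 1.93 on the log2 scale, and all 10 microglial markers rose in both microglial lines. Neuronal markers summed to 4080 to 4973 CPM in bound RNA and 7385 to 9380 CPM in unbound RNA of the 3 lines, and no marker of any list was at 0 in a group. Pieces of the microglial lines are named by mouse and side letter (L or R). Mouse 17 of the heterozygous line has both pieces labelled deprived and mouse 21 both labelled control, although only one side was lesioned. The titles were followed, so each heterozygous group holds left and right pieces. Both pieces of mouse 17, and both of mouse 21, count as separate libraries of a group. Line coincides with count table, so these cannot be told apart. The molecule field reads polyA RNA in the knockout line but total RNA in the other 2. Where the knockout line is compared with another, molecule cannot be told apart from line and table either. Fewer cells of a type and less RNA per cell cannot be told apart in such bulk samples either.

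Mitochondrial rRNA made up a small share of bound RNA in every line and a large share of unbound RNA only in the tables of the microglial lines. In unbound RNA the rRNA rows took 24.3% ± 2.46 of all counts in the heterozygous line (SD, n = 8) and 26.8% ± 2.55 in the knockout line (n = 10), against 4.72% ± 0.934 in the astrocyte line (n = 10). In bound RNA the shares were 1.68% ± 0.183, 1.91% ± 0.601 and 1.83% ± 0.295 in the same order. Bound and unbound ranges did not overlap in any line, and the bound ranges of the 3 lines overlapped each other. The mRNA rows took 2.85% ± 0.879 of bound and 2.56% ± 0.368 of unbound counts in the astrocyte line, 0.564% ± 0.0508 and 1.72% ± 0.163 in the heterozygous line, and 0.684% ± 0.133 and 1.83% ± 0.174 in the knockout line. In the astrocyte line the unbound libraries, 2.04% to 3.22%, lay inside the bound range of 1.10% to 4.08%. Its lowest bound library, deprived 5, lay above every bound library of the microglial lines, of which the highest was at 1.02%, and below every unbound library of all 3 lines, of which the lowest was at 1.42%. The tRNA rows were scarce everywhere: 0.0580% ± 0.0284 of counts in astrocyte bound RNA and 0.00528% ± 0.000879 in unbound, 0.00236% ± 0.000513 and 0.00167% ± 0.000152 in the heterozygous line, and 0.00307% ± 0.000516 and 0.00174% ± 0.000186 in the knockout line.

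**Figure D1:**
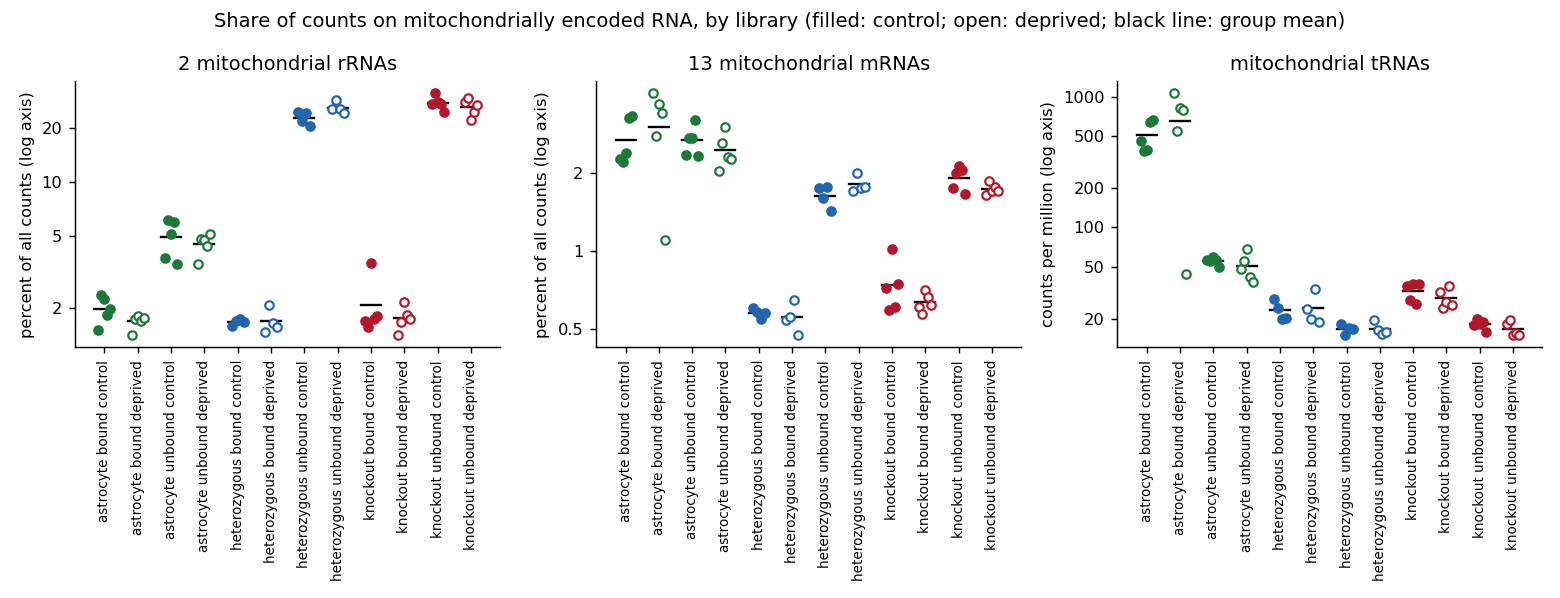
Share of each library's counts in mitochondrial rRNA and mRNA rows (percent) and in tRNA rows (CPM over the library's total counts), on log axes, by line, fraction and condition; filled points are control and open points deprived libraries, and black lines are group means. Unbound rRNA sits between 20.5% and 31.1% in the microglial lines and between 3.50% and 6.11% in the astrocyte line, while 1 astrocyte bound library, deprived 5, lies below its group in mRNA and tRNA.

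The fractions were then compared gene by gene over all genes that passed a low-count filter, with edgeR's quasi-likelihood test and Benjamini-Hochberg adjustment, and a gene is said to have risen or fallen where its adjusted p was below 0.05. Most of the transcriptome separates bound from unbound RNA, which sets the background for the members. In the astrocyte line 31.5% of 18324 genes rose and 27.6% fell in bound RNA. For the heterozygous line, 31.8% of 19275 rose and 30.8% fell, and in the knockout line 31.6% of 19681 rose and 30.4% fell. The median of all genes was 0.03, -0.01 and -0.01 on the log2 scale.

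Both rRNAs fell in bound RNA of every line. mt-Rnr2, the large-subunit rRNA (chrM:1094-2675), ran from 9932 through a median of 12455 to 15584 CPM in astrocyte bound libraries and from 23488 through 32435 to 42730 CPM in unbound ones. In the heterozygous line it ran from 9384 through 11296 to 12450 CPM in bound and from 140505 through 173199 to 209551 CPM in unbound libraries, and in the knockout line from 9887 through 11428 to 21577 and from 162224 through 195414 to 220142 CPM. Bound levels thus lay close together in the 3 lines, unbound levels did not, and bound and unbound libraries never overlapped. The log2 difference of mt-Rnr2 was -1.36 ± 0.10 (SE) in the astrocyte line, -3.93 ± 0.08 in the heterozygous line and -3.96 ± 0.14 in the knockout line (edgeR adjusted p = 4.5e-12, 5.0e-19 and 1.1e-16). mt-Rnr1, the small-subunit rRNA (chrM:70-1024), differed by -1.32 ± 0.11, -4.28 ± 0.12 and -4.30 ± 0.17. Piece by piece, the rRNA sum was lower in bound than in unbound RNA in 8 of 8 heterozygous and 10 of 10 knockout pieces, by 16.5-fold and 17.1-fold on average. For the astrocyte line, whose numbers name no animal, group means differed 2.52-fold.

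Among the mRNAs, the astrocyte line moved in both directions and the microglial lines in one. Of 13 tested in the astrocyte line 6 rose (mt-Nd3, mt-Nd2, mt-Nd4l, mt-Nd6, mt-Nd5 and mt-Atp8) and 2 fell (mt-Co1 and mt-Co3). Of 11 tested in the heterozygous line 0 rose and 10 fell, and of 11 in the knockout line 0 rose and 9 fell. mt-Atp8 and mt-Nd3 did not pass the count filter in either microglial line. mt-Co2, mt-Atp6, mt-Co3 and mt-Nd4l passed it there on few counts, at most 187 in a heterozygous and 156 in a knockout library.

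Complex I is the NADH dehydrogenase at the entry of the respiratory chain, and 7 of its subunits are mitochondrially encoded. mt-Nd2 (chrM:3914-4951) ran from 1236 through 4852 to 7656 CPM in astrocyte bound and from 861 through 1205 to 1615 CPM in astrocyte unbound libraries. It rose by 1.95 ± 0.20 on the log2 scale (edgeR adjusted p = 2.0e-09), and its groups overlapped only through bound deprived 5. In the heterozygous line it ran from 405 through 508 to 740 CPM bound and from 532 through 570 to 729 CPM unbound and the log2 difference was -0.21 ± 0.10 (edgeR adjusted p = 0.081), which passed with the tissue piece as a block (-0.22) and on leaving out piece 15R (-0.26) or 17L (-0.33). In the knockout line the difference was -0.04 ± 0.10 (edgeR adjusted p = 0.75). These groups overlapped almost fully, and mt-Nd2 and mt-Nd4l were the mRNAs with no call in the knockout line. mt-Nd1, which follows the rRNAs on the chromosome, differed by -0.19 ± 0.14 in the astrocyte line (adjusted p = 0.24) but fell by 2.13 and 2.06 in the heterozygous and knockout lines. mt-Nd5, the longest mRNA of the chromosome, rose by 0.68 ± 0.14 in the astrocyte line and fell by 0.91 and 0.70 in the microglial lines. Its opposite-strand neighbour mt-Nd6 took similar values, 0.86 ± 0.17, -1.02 ± 0.08 and -0.70 ± 0.08. mt-Nd4 differed by 0.18 ± 0.16 in the astrocyte line (edgeR adjusted p = 0.36), passed as higher without deprived 5 (0.27, adjusted p = 0.026) and fell by 1.49 and 1.40 in the other two.

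Complex IV is cytochrome c oxidase, whose catalytic core comprises the products of mt-Co1, mt-Co2 and mt-Co3. mt-Co1 (chrM:5328-6872) ran from 2213 through 3853 to 4624 CPM in astrocyte bound and from 5328 through 6921 to 9683 CPM in unbound libraries, without overlap. In the heterozygous line the ranges were 698 to 938 CPM and 5774 to 7106 CPM, and in the knockout line 657 to 1362 CPM and 6256 to 7951 CPM. The log2 differences were -0.93 ± 0.11, -2.93 ± 0.07 and -2.87 ± 0.10, the lowest of the mRNAs without a full-length nuclear copy in each line. mt-Cytb, the only mitochondrially encoded subunit of complex III, differed by -0.18 ± 0.14 in the astrocyte line (adjusted p = 0.29) and fell by 2.05 and 1.90 in the microglial lines. Of the ATP synthase subunits, mt-Atp6 differed by 0.08 ± 0.22 in the astrocyte line (adjusted p = 0.78) and fell by 2.31 and 2.39 in the microglial lines. Its fall rests on few counts, 4 to 31 per bound and 29 to 70 per unbound library in the heterozygous line. In the knockout line they were 6 to 21 and 39 to 80.

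**Figure D2:**
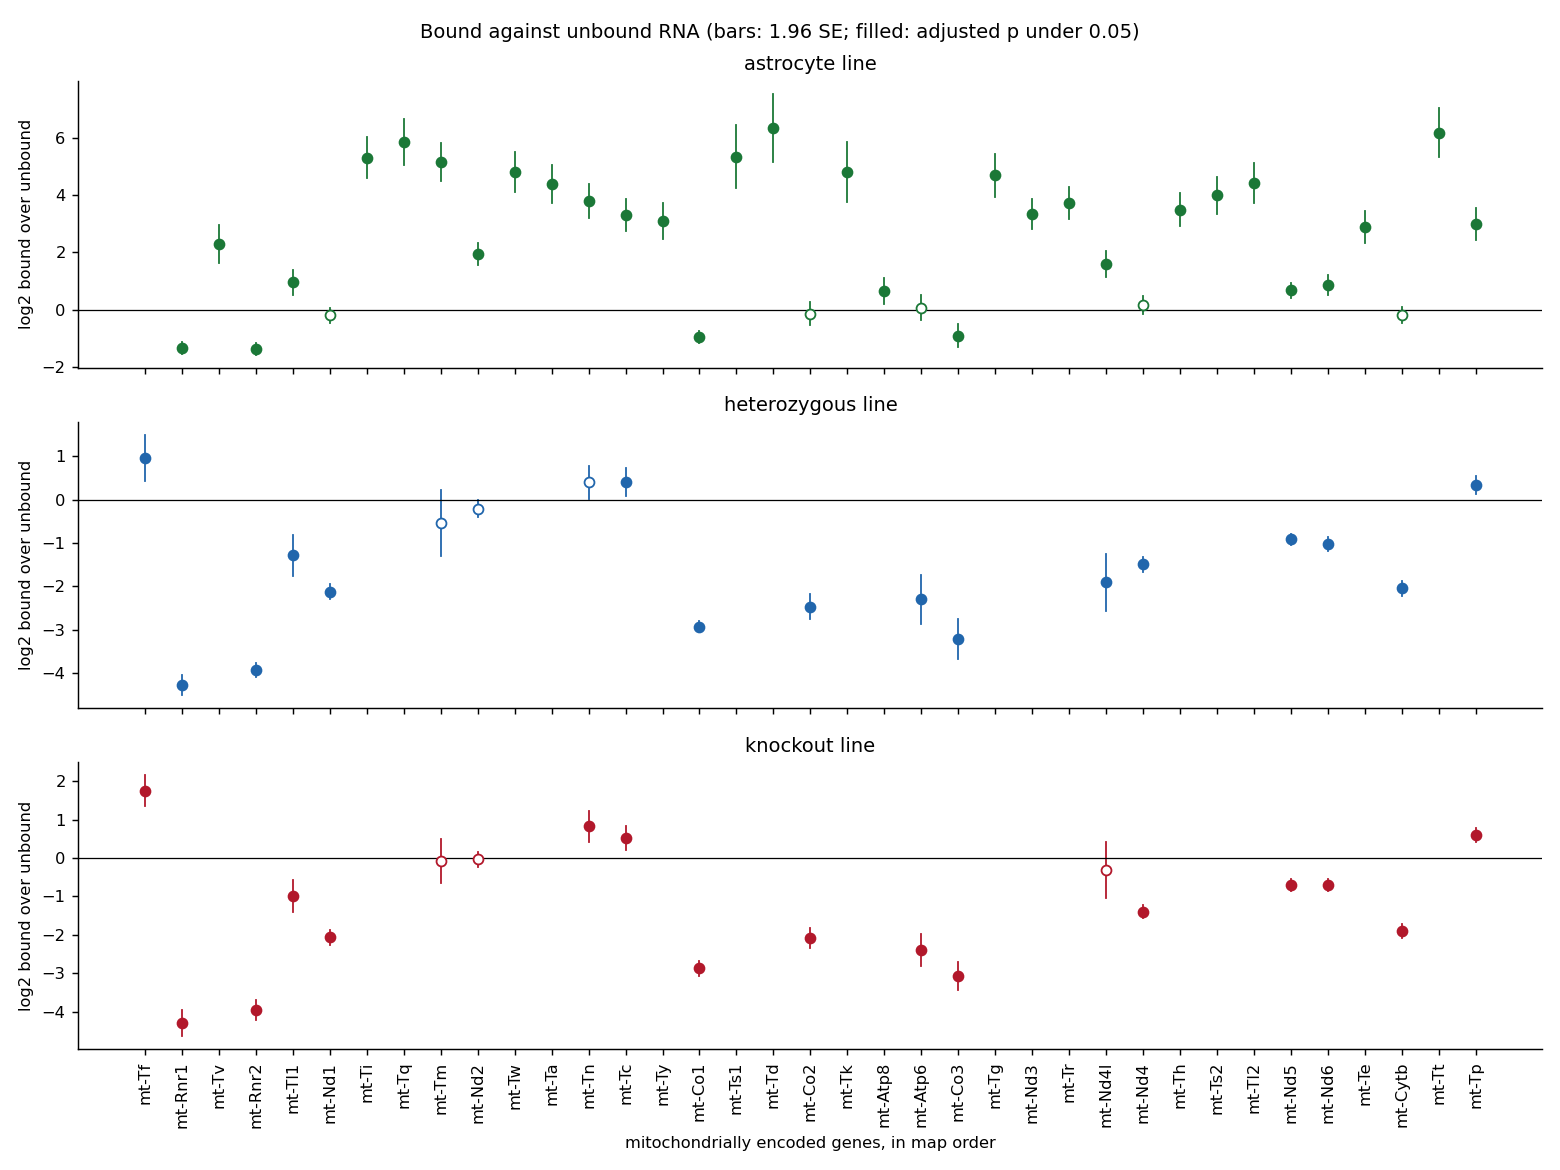
Log2 difference of bound over unbound RNA for each member tested, in chromosome order, per line; bars are 95% intervals from edgeR, colours the lines, and filled points passed the adjusted threshold. In each line the rRNAs lie lowest, and the tRNAs of the astrocyte line lie between 0.96 and 6.33.

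All 21 tRNAs tested in the astrocyte line rose in bound RNA. The tRNA genes are 59 to 75 bases long, and most lie directly beside another gene. How reads reaching into a neighbouring gene were counted is not given in the sources used here. Counts of tRNA rows were not separated into mature tRNAs and longer precursors. mt-Tp, whose sequence is given above, ran from 15.8 through 265 to 461 CPM in bound and from 23.9 through 32.5 to 39.4 CPM in unbound libraries, so that 9 of 10 bound libraries lay above all unbound ones and deprived 5 below them. It rose by 2.99 ± 0.29 on the log2 scale (edgeR adjusted p = 8.2e-10). mt-Tc rose by 3.29 ± 0.28, and mt-Td by 6.33 ± 0.60 from 0 to 3 counts per unbound library, too few to fix its size. The smallest rise was that of mt-Tl1 (leucine), 0.96 ± 0.22, whose gene lies between mt-Rnr2 and mt-Nd1. The rise of mt-Atp8 among the mRNAs was lost without deprived 1 (0.52). Groups did not overlap for 7 of the 22 tRNAs listed: mt-Ti, mt-Tq, mt-Tm, mt-Tw, mt-Tn, mt-Tg and mt-Tr. All 7 are among the 21 tRNAs with a mean of at least 10 counts per library, and 11.7% of 17553 genes with such counts lay wholly higher in bound RNA. In the microglial lines only 6 tRNAs passed the filter. mt-Tp ran from 13.7 through 16.1 to 25.3 CPM in heterozygous bound and from 12.5 through 14.0 to 15.7 CPM in unbound libraries, which overlapped, and rose by 0.34 ± 0.11 (adjusted p = 0.012). In the knockout line it rose by 0.60 ± 0.09, from 12.5 to 16.9 CPM unbound to 17.4 to 28.3 CPM bound. mt-Tc rose by 0.41 ± 0.17 and 0.52 ± 0.16, mt-Tf (phenylalanine) by 0.96 ± 0.27 and 1.75 ± 0.20, and mt-Tn (asparagine) by 0.82 ± 0.21 in the knockout line, while mt-Tl1 fell by 1.29 and 0.99. mt-Tf had only 4 to 15 counts per unbound library in each microglial line. The rises of mt-Tc and mt-Tp in the heterozygous line were lost on leaving out single pieces (0.31 for mt-Tc without 15R and 0.20 for mt-Tp without 17L). Of the 22 tRNAs, mt-Ty and mt-Td had no count in any heterozygous library, and mt-Tw, mt-Tg and mt-Tk none in any knockout library.

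Levels per kilobase of gene length allow genes to be compared. They were compared first for the 5 mRNAs that share at most 3.20% of their 100-base stretches with a nuclear transcript and are not in the low block described next, mt-Nd1, mt-Nd2, mt-Nd5, mt-Nd6 and mt-Cytb, and their spread was narrower in bound than in unbound RNA. In astrocyte bound RNA they held 3277 ± 999, 4513 ± 1820, 4260 ± 1310, 3156 ± 1041 and 3374 ± 1043 CPM per kb (SD, n = 10), a spread of 1.48 ± 0.0981-fold from lowest to highest within a library. In unbound RNA they held 3744 ± 535, 1166 ± 224, 2662 ± 439, 1742 ± 501 and 3822 ± 581 CPM per kb, a spread of 3.35 ± 0.457-fold. The spread was also narrower in bound RNA of the microglial lines, from 5.35-fold unbound to 1.98-fold bound in the heterozygous line and from 5.50-fold to 1.957-fold in the knockout line. mt-Nd2 over mt-Nd1 per kb was 1.33 ± 0.201 in bound and 0.311 ± 0.0375 in unbound RNA of the astrocyte line, 0.803 ± 0.0820 and 0.215 ± 0.0237 in the heterozygous line, and 0.840 ± 0.0690 and 0.208 ± 0.0212 in the knockout line. The bound and unbound ranges of this ratio did not overlap in any line. Per kilobase, the rRNAs stood 2.2 ± 1.15 times as high as the 5 mRNAs in astrocyte bound RNA and 6.79 ± 1.04 times in unbound, against 8.94 ± 1.39 and 54.3 ± 2.56 in the heterozygous line and 8.12 ± 1.11 and 56.7 ± 4.90 in the knockout line.

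**Figure D3:**
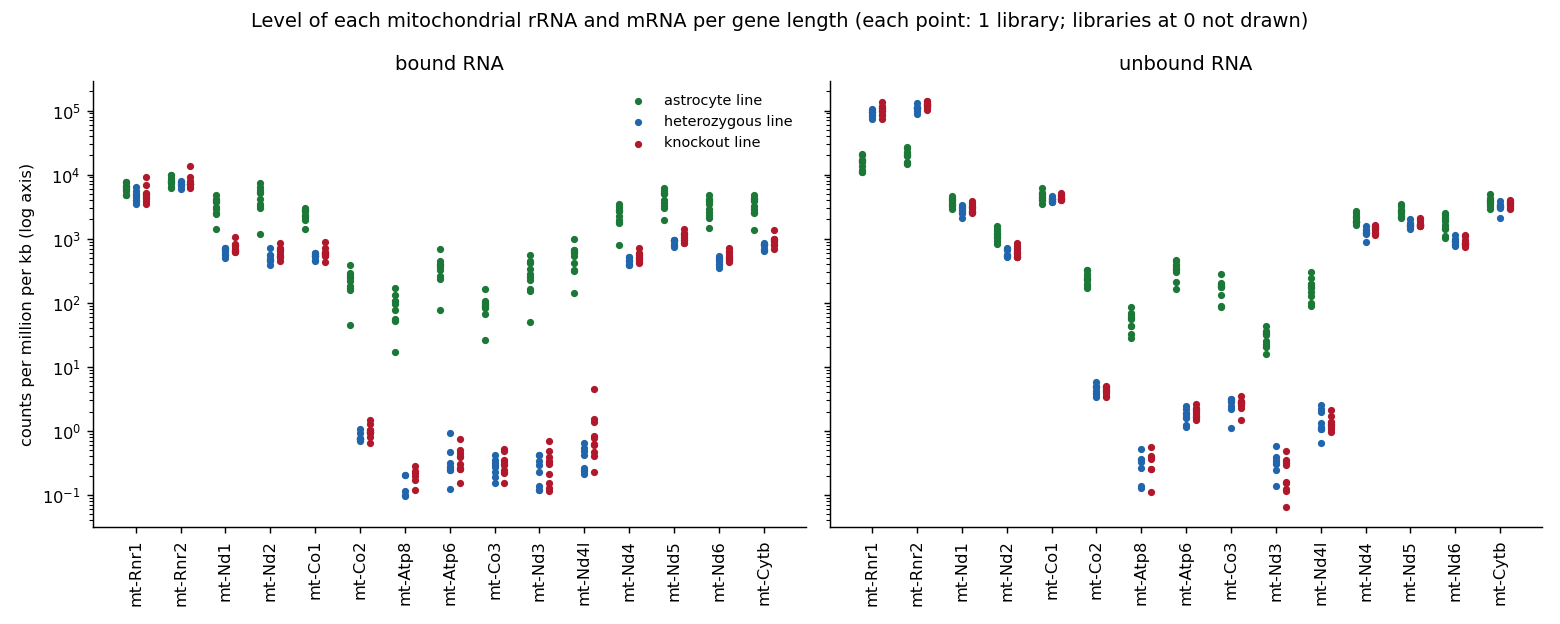
Level of the rRNAs and mRNAs in CPM per kilobase (log axis), bound RNA left and unbound RNA right, in chromosome order; each point is a library, coloured by line, and libraries at 0 are not drawn. In the microglial lines mt-Co2, mt-Atp8, mt-Atp6, mt-Co3, mt-Nd3 and mt-Nd4l lie far below their neighbours.

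The block from mt-Co2 to mt-Nd4l was almost uncounted in the microglial tables. The 6 mRNAs mt-Co2, mt-Atp8, mt-Atp6, mt-Co3, mt-Nd3 and mt-Nd4l together reached a median of 6.22% of the level per kilobase of the 5 mRNAs above in astrocyte bound RNA and 7.39% in unbound RNA. The figures were 0.0575% and 0.127% in the heterozygous line and in the knockout line 0.0612% and 0.115%. mt-Co2 had a median of 3022 counts in astrocyte bound libraries but 25.5 in heterozygous and 33.0 in knockout ones, which were sequenced deeper. Its copy Gm28661 had 1877, 9.5 and 13 counts in the same libraries, so the counts of gene and copy together stayed low in the microglial lines. All of these genes except mt-Atp8 have an annotated copy that matches in full or but for 1 base. Only annotated transcripts were searched: the 233 bases between Gm10925 and Gm28661 on chromosome 1 equal in length the mitochondrial stretch between their counterparts, which holds the part of mt-Atp8 before mt-Atp6, and their sequence was not analysed here. How reads with several equal matches were treated is not given in the sources used here, and its part in these low counts was not tested.

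The astrocyte and microglial lines differed in bound over unbound enrichment for most members, as tested by the difference of the log2 ratios over all 12 groups. Between the heterozygous and the astrocyte line 22 of 35 members tested were lower and 0 higher, where 18.8% of 24464 genes were lower. Between the knockout and the astrocyte line 23 of 35 were lower and 0 higher, where 18.5% of genes were lower. mt-Rnr2 was lower by -2.57 ± 0.16 and -2.60 ± 0.15, mt-Co1 by -2.003 ± 0.14 and -1.94 ± 0.14, mt-Nd2 by -2.16 ± 0.23 and -1.99 ± 0.22, and mt-Tp by -2.66 ± 0.31 and -2.40 ± 0.29 (edgeR adjusted p at most 1.2e-09 for each). Over the 18 members tested in both lines of a pair, the log2 ratios differed by a median of -2.33 (-5.68 to -1.59) and -1.97 (-5.23 to -1.38), while the median of all genes differed by -0.11 and -0.10. Members with near 0 counts in the microglial tables, mostly tRNAs, gave no usable estimate. The order of members by their log2 ratio was similar between lines, with Spearman rho of 0.93 between the astrocyte and heterozygous lines over the 18 members tested in both, 0.95 between the astrocyte and knockout lines, and 0.98 between the microglial lines over 19; the members of a line share its libraries. Line, tamoxifen and count table cannot be told apart in this comparison.

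Within astrocyte bound RNA, libraries with more mitochondrial mRNA also held more mitochondrial tRNA, while rRNA shares stayed between 1.41% and 2.36%. The mRNA share was 2.27%, 2.21%, 2.40%, 3.27% and 3.31% in control libraries 1 to 5 and 4.08%, 2.79%, 3.69%, 3.41% and 1.10% in deprived libraries 1 to 5. Deprived 5 was the lowest and deprived 1 the highest, so the deprived group spanned the control group. mt-Tp took 461 CPM in deprived 1 and 15.8 CPM in deprived 5, 18.2 times below the median of the other 9 libraries. mt-Nd2 was 4.36 times and mt-Co1 1.85 times below that median in deprived 5, whereas mt-Rnr2, at 12711 CPM, lay near it. Over the 10 libraries the mRNA and tRNA shares had Pearson's r = 0.981 and Spearman's rho = 0.988 (permutation p = 0.00002 for each, the smallest that 100000 resamples can give, adjusted p = 0.00036 over 18 relations). Without deprived 5 and deprived 1, r was 0.967. The same relation gave r = 0.713 in astrocyte unbound RNA (permutation p = 0.020, adjusted 0.051), 0.819 in heterozygous bound (0.0059, adjusted 0.0354) and 0.659 in knockout bound RNA (0.011, adjusted 0.048), which were 0.658, 0.585 and 0.580 without their 2 farthest libraries. Spearman's rho was 0.879, 0.857 and 0.778 there, with adjusted permutation p of 0.0166, 0.0511 and 0.0511. In unbound RNA of the knockout line r was 0.651 (adjusted permutation p = 0.0975) and rho 0.612, and in that of the heterozygous line r was 0.0526 and rho -0.0952 (adjusted permutation p = 0.922 and 0.892). In astrocyte bound RNA the rRNA and mRNA shares had r = -0.320 (permutation p = 0.37, adjusted 0.51). That r was 0.726 in astrocyte unbound, 0.941 in heterozygous unbound and 0.926 in knockout bound RNA (adjusted permutation p = 0.051, 0.0354 and 0.0491). Without their 2 farthest libraries it was 0.692, 0.706 and 0.469, and rho over all libraries was 0.564, 0.595 and 0.729. In heterozygous bound and knockout unbound RNA r was 0.0849 and 0.531 (adjusted permutation p = 0.875 and 0.199). Control and deprived libraries were pooled here, since each holds at most 5.

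**Figure D4:**
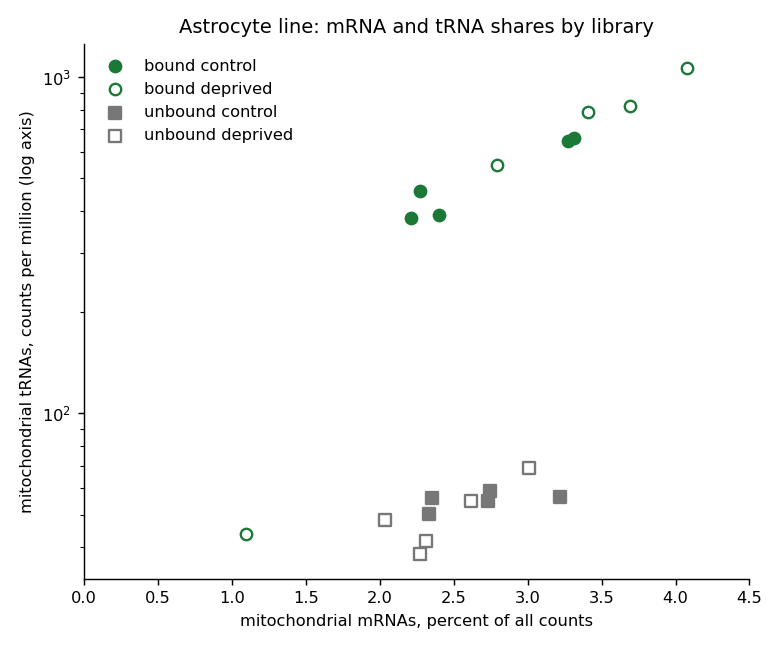
Mitochondrial tRNA counts (CPM over the library's total counts) against the mitochondrial mRNA share (percent) in the astrocyte line; each point is a library, circles bound and squares unbound RNA, filled for control and open for deprived, with a log vertical axis. Bound libraries climb from deprived 5 (mRNA share 1.10%, tRNA 43.8 CPM) to deprived 1 (4.08% and 1063), and unbound libraries stay between 38.1 and 68.8.

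Whisker deprivation changed no member past the threshold in any line or fraction. In the astrocyte line 0 of 36 members passed in bound and 0 of 28 in unbound RNA, where the share of all genes called was 0 percent in both (1067 and 1043 genes had an unadjusted p below 0.05). In the heterozygous line 0 of 16 passed in bound RNA, where 10.3% of all genes did, and 0 of 18 in unbound RNA, where 3.75% did. These shares follow the titles. With the heterozygous pieces grouped by side letter, 0 of 18001 genes were called in bound and 0 of 18073 in unbound RNA, with or without mouse as a block. In the knockout line 0 of 18 passed in bound RNA, where 0.00546% of genes did, and 0 of 18 in unbound RNA, where 0.038% did. Unadjusted p fell below 0.05 for 0, 0, 2, 3, 0 and 3 members in the same order. Of all genes, it did so for 4722 of 18001 in heterozygous bound and 3221 of 18073 in heterozygous unbound RNA. In the knockout line it did so for 690 of 18324 in bound and 874 of 18421 in unbound RNA. For every member listed, deprived and control libraries overlapped in each line and fraction, which members with near 0 counts could hardly avoid. In heterozygous bound RNA 2 rRNAs, 10 mRNAs and 5 tRNAs had a mean of at least 10 counts, and in unbound RNA 2, 11 and 4. Among all genes with a mean of at least 10 counts, deprived and control libraries did not overlap for 1.17% in astrocyte bound, 0.936% in astrocyte unbound, 16.9% in heterozygous bound, 13.1% in heterozygous unbound, 0.602% in knockout bound and 0.86% in knockout unbound RNA. Without the low-count filter, 9 members passed as higher in astrocyte bound RNA and 4 as lower in unbound RNA. The median standard error of the members in bound RNA then went from 0.37 to 0.10. How many of all genes passed in that setting is not given here, so these counts cannot be set against a background.

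Members nonetheless lay on one side of 0 in several comparisons, while the median of all genes lay between -0.006 and 0.009. The members of a comparison share its libraries, so these counts are not of independent values. In astrocyte bound RNA 34 of 36 lay above 0 (median 0.38), with both rRNAs below, and 28 of 28 lay below 0 in unbound RNA (median -0.17). mt-Nd2 stood at 3402, 3162, 3665, 5550 and 5382 CPM in control libraries 1 to 5 of bound RNA and at 7656, 4321, 6577, 5890 and 1236 CPM in the deprived ones. Of the deprived values 3 exceeded every control value, yet deprived 5 lay below all of them, and the log2 difference was 0.27 (adjusted p = 0.93). Without deprived 5 it was 0.52 ± 0.17 and that of mt-Atp8 0.85 ± 0.20, still with adjusted p = 0.82 and 0.81. In heterozygous bound RNA 14 of 16 members lay below 0 (median -0.14). mt-Cytb, the member with the smallest p there, stood at 913, 966, 915 and 947 CPM in control libraries 1 to 4 and at 754, 799, 946 and 727 CPM in deprived ones. Deprived library 3 lay inside the control range and the others below it, and the difference was -0.21 ± 0.08 (edgeR adjusted p = 0.13). Without that library, mt-Cytb, mt-Nd1 and mt-Nd6 passed as lower, and without deprived 2 mt-Rnr1 did. How many of all genes passed with those libraries left out is not given here. Microglial markers summed to 138 to 200 CPM in these control libraries and 240 to 290 CPM in the deprived ones. Astrocyte markers summed to 601 to 684 against 701 to 768 CPM, neuronal markers to 4548 to 4861 against 4080 to 4300 CPM and oligodendrocyte-lineage markers to 165 to 190 against 149 to 158 CPM, so 4 marker lists separated the groups as titled. In heterozygous unbound RNA astrocyte markers (755 to 840 against 878 to 1000 CPM) and neuronal markers (8287 to 9380 against 7586 to 8131 CPM) separated them as well. The part of these in the members' values was not tested. In heterozygous unbound RNA 11 of 18 lay above 0, mt-Rnr2 at 0.23 ± 0.08 (edgeR adjusted p = 0.14). In the knockout line 14 of 18 lay below 0 in bound and 17 of 18 in unbound RNA, but without the bound control library of mouse 18, 11 of 19 lay above 0 in bound RNA (median 0.01). mt-Rnr2 in knockout bound RNA stood at 11451, 9887, 21577, 11215 and 12004 CPM in control libraries of mice 7, 12, 18, 19 and 22 and at 9941, 11179, 14357, 12516 and 11405 CPM in their deprived libraries. Mouse 18 was the highest on both sides, and without its control library the difference turned from -0.17 ± 0.19 to 0.08 ± 0.12.

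**Figure D5:**
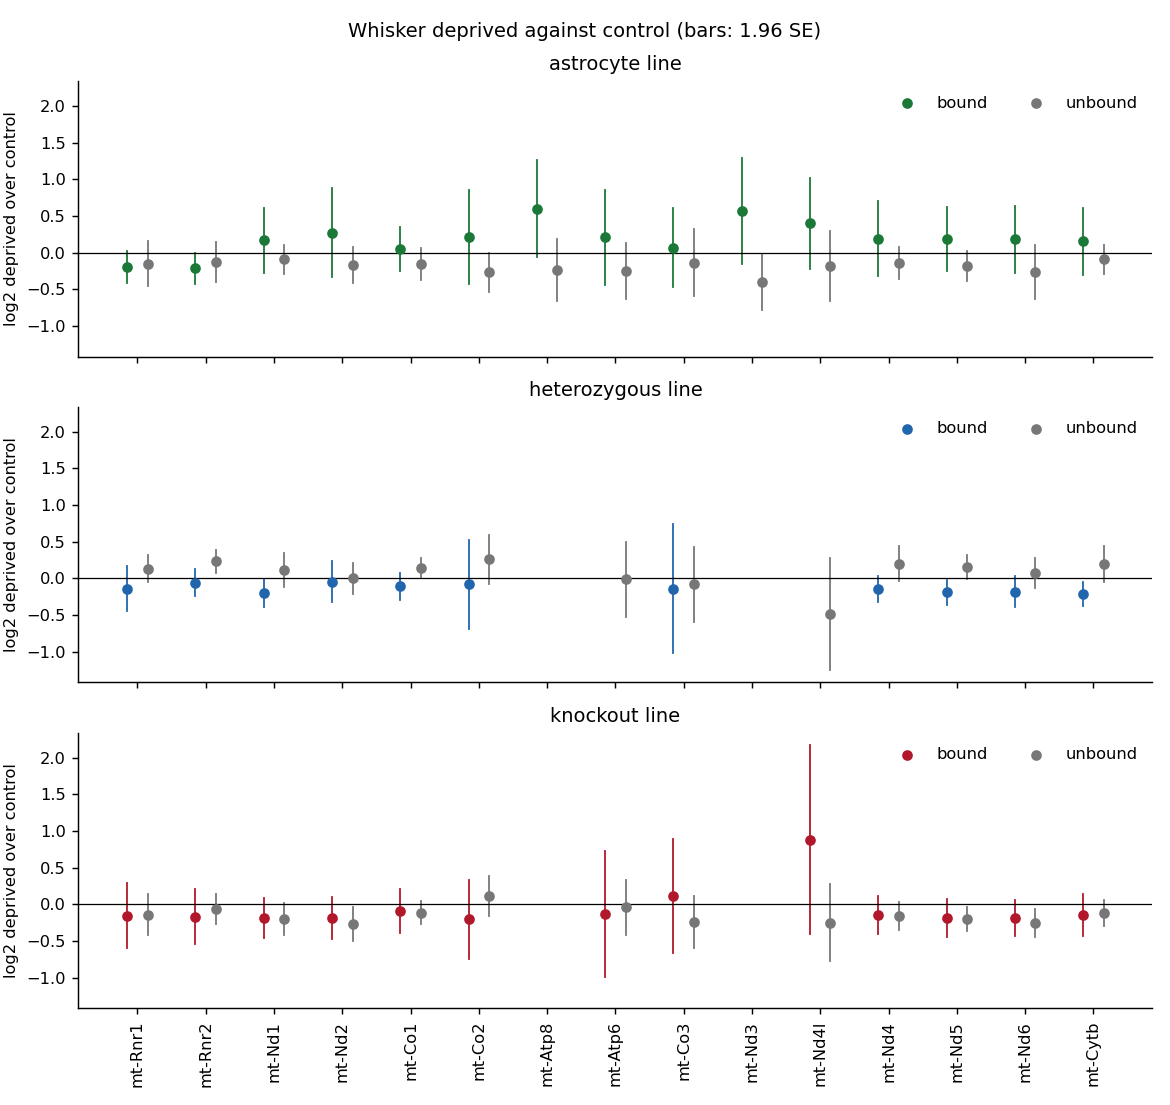
Log2 difference of deprived over control for the rRNAs and mRNAs tested in each line, in chromosome order; coloured points are bound and grey points unbound RNA, and bars are 95% intervals from edgeR. No value passed the adjusted threshold.

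The effect of deprivation on bound minus that on unbound RNA was tested as an interaction. None of 36 members passed in the astrocyte line, none of 19 in the heterozygous and none of 19 in the knockout line, and 0 percent of all genes passed in each (546, 1904 and 335 genes had an unadjusted p below 0.05). Without the low-count filter 7 passed in the astrocyte line, where the number of all genes passing is not given here. In the astrocyte line 33 of 36 member differences were above 0, with a median of 0.53 and a median standard error of 0.59. The median of all genes was 0.01 there, and the members share their libraries.

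No member differed past the threshold between the knockout and heterozygous lines. In bound RNA 19 of 19 members tested lay higher in the knockout line, with a median log2 difference of 0.29, but 0 passed the threshold, where 0.305% of 20676 genes did. The median of all genes was 0.01, and the members share their libraries. mt-Nd5 differed by 0.30 ± 0.08 (edgeR adjusted p = 0.081), from 1337 to 1764 CPM in the heterozygous to 1576 to 2616 CPM in the knockout line, which overlapped. mt-Nd4l differed by 1.5 ± 0.41 (adjusted p = 0.096) at 0.0631 to 0.189 against 0.0672 to 1.35 CPM, few counts and with the top value in 1 library, deprived 12. Without the low-count filter 3 members passed in bound RNA, by DESeq2 2, and without the heterozygous piece 17L or the knockout piece 12R 1 each. By DESeq2 194 of 20671 genes passed there, and such numbers are not given here for the rest of these settings. In unbound RNA 0 of 19 passed (0.0725% of all genes), and in bound over unbound enrichment 0 of 19 passed, where 0 percent of all genes did (712 genes had an unadjusted p below 0.05). Enrichment of mt-Rnr2 differed by -0.02 ± 0.15 and that of mt-Nd5 by 0.22 ± 0.11 between these lines.

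Nuclear genes of the same machinery, were counted from lists drawn up beside the members. Nuclear-encoded subunits of complexes I to IV and ATP synthase, which cytosolic ribosomes do translate, rose for 33 and fell for 15 of 75 tested in astrocyte bound over unbound RNA (median 0.13). Of the same genes, 4 rose and 66 fell in the heterozygous line (median -0.60), and in the knockout line 4 rose and 67 fell (median -0.66). Examples with the smallest p were Uqcrq, a small complex III subunit, at 0.75 in the astrocyte line, and Ndufc2, a complex I subunit, at -0.96 and -1.05 in the microglial lines. Mitochondrial ribosomal proteins rose for 22 and fell for 25 of 76 in the astrocyte line, 4 and 61 of 77 in the heterozygous and 4 and 60 of 77 in the knockout line (medians -0.07, -0.40 and -0.40). Factors that copy, transcribe or process mitochondrial DNA and RNA rose for 9, 12 and 12 and fell for 7, 7 and 6 of 27, 26 and 26. Cytosolic ribosomal protein mRNAs rose for 5 and fell for 16 of 30 in the astrocyte line, and all 30 fell in both microglial lines (medians -0.15, -0.69 and -0.79). Import and matrix proteins rose for 2, 2 and 1 and fell for 10, 9 and 10 of 14. Noncoding RNAs of nucleus and cytosol rose for 3, 2 and 2 and fell for 5 of 8 in each line. Deprivation moved 9 of the 75 nuclear respiratory genes up and 0 down in heterozygous bound RNA (median 0.18), among them Uqcrfs1, the Rieske subunit of complex III, by 0.39 ± 0.08. That is 12.0% of the list beside 5.52% of all 18001 genes called higher there, and whether the list differs from other genes was not tested. Those calls follow the titles, and with pieces grouped by side letter 0 of 18001 genes passed. No gene of the list passed in the other 5 comparisons, and 9 of 9 tested mitochondrial mRNAs lay below 0 in heterozygous bound RNA without passing.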

How the data were processed

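Ribosome-bound and unbound RNA of 56 libraries was analysed from 3 tables of deposited read counts per gene, 1 per line. Reads were trimmed with Trim Galore 0.6.4 and cutadapt 2.9, aligned to GRCm38 (mm10) with HISAT2 2.2.0 and counted with featureCounts 2.0.0, per the submitters' processing notes. Strand and multimapping settings are not given in the sources used here. The cDNA was made with NuGEN Ovation V2 and libraries with Nextera XT, per the labels' protocols.

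Tests on the counts used edgeR 4.0.16 under R 4.3.3 (TMM scaling, filterByExpr with a minimum count of 10, quasi-likelihood test, Benjamini-Hochberg threshold 0.05), on all genes of each comparison. Deprivation was fitted within each line and fraction, bound against unbound within each line, and differences between lines over their groups together. CPM uses TMM library sizes. Alternatives were other scalings, no filter, DESeq2 1.42.0, limma 3.58.1 voom weights, a sex term, a replicate block, nuclear copy counts added and each library left out. For deprivation in the heterozygous line, pieces were also grouped by side letter, with and without mouse as a block. A check on simulated counts with known changes used independent libraries, without shared mice or pieces, and its outcome is not given here. Where nothing says that samples came from separate animals (astrocyte line), p-values measure the spread between samples only. In the microglial lines a mouse gave left and right pieces, and each piece both fractions. The main fits had no term for mouse or piece. SDs, SEs and p-values there, also those by permutation, treat libraries of the same mouse as separate samples.

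Both rRNAs and all mRNAs were named, and tRNAs with a mean of at least 10 counts per library in a table; of other lists, the 3 genes with the smallest p, and 4 pulldown checks (Aldh1l1, Gfap, Cx3cr1, P2ry12). mt-Td was named for its size after its values were seen. Members and lists were chosen with earlier results of these data known. Numbers of the knockout line are mice, and control and deprived pieces of a mouse had correlations of 0.0937 to 0.271 in bound RNA (deviations from group means). Bound and unbound libraries of a piece had 0.128 to 0.361 in the heterozygous and 0.157 to 0.399 in the knockout line. Sequences were read from the reference transcripts.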

Additional observations from a re-analysis of the deposited data

Results flagged for a closer look

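In 7 of 172 groups of 4 or 5 libraries, 1 library stood apart from the others by Dixon's criterion, where chance gives about 1 in 20. In knockout bound control RNA, mouse 18 had an rRNA share of 3.53% against a group median of 1.74%, and mt-Rnr2 at 21580 CPM against 11450. In heterozygous unbound deprived RNA, library 8 had mt-Rnr2 at 209600 CPM (median 175400) and mt-Nd2 at 717 CPM (median 570). In heterozygous bound RNA, control library 3 had mt-Co1 at 922 CPM (median 839) and deprived library 3 had mt-Nd4 at 700.4 CPM (median 550.0). In astrocyte bound deprived RNA, library 1 had the lowest rRNA share, 1.41% (median 1.74%). What sets these libraries apart was not tested.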

How the results depend on the processing

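No called result reversed. Of the alternative values of the comparisons 553 were labelled the same and 14 moved, and of 1064 values of named members 1035 stayed the same. Counts of called members within 1.5-fold of each other were labelled the same. The 553 include shares of counts with 1 library left out, labelled the same where the mean moved by less than the SD. Leaving out 1 library cannot move a mean that far, so these entries say nothing about robustness. Without the low-count filter, 9 members passed for deprivation in astrocyte bound RNA, 4 in astrocyte unbound RNA and 7 in the astrocyte interaction. In bound RNA between knockout and heterozygous lines 3 did. By DESeq2, 2 passed in the last, where 194 of 20671 genes did. In enrichment of the heterozygous against the astrocyte line 34 passed by DESeq2, where 9157 of 24460 genes did. By edgeR 22 members and 8935 of 24464 genes passed there. Numbers of all genes called without the filter or with a library left out are not given here. Leaving out single libraries gave 0 to 3 members for deprivation in heterozygous bound RNA and 0 to 1 in bound RNA between knockout and heterozygous lines. Taken over counts without mitochondrial rRNA, unbound mRNA and tRNA shares were 2.28% and 0.00221% in the heterozygous line and 2.51% and 0.00239% in the knockout line. With the replicate block (piece), mt-Nd2 passed as lower in heterozygous bound RNA (-0.22); the block changed no other call. Scaling by total counts moved the median of all genes in bound against unbound RNA to 0.18 (heterozygous) and 0.23 (knockout), with mt-Nd2 at 0.20 in the latter. Among single members, mt-Nd4 (0.27 without astrocyte deprived 5), mt-Tn in the heterozygous line (0.51 without 14R) and mt-Nd4l in the knockout line (-0.76 without 12L) passed on leaving out 1 library pair. Most tRNAs of the microglial lines had few counts, although these libraries held more counts in all than those of the astrocyte line.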
